A study of Mus musculus with 9 samples.

Results

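The transcripts of 9 nuclear receptor genes were followed in mouse liver: Nr1i2, Nr1i3, Rxra, Hnf4a, Esrra, Ppard, Pparg, Nr3c1 and Thrb. They were taken by symbol from the count tables, where all 9 were found among 23337 genes, and all 9 passed the filter on low counts that left 12587 genes for testing. Wild-type mice entered the diets at 8 weeks of age and stayed on them for 12 weeks, and the livers were taken while the mice were fed. The 3 livers called ND came from mice on a normal diet, and the 3 called HFD from mice on a 60% high-fat diet. The 3 called HFD_HDCA came from mice on the same 60% high-fat diet with 0.25% hyodeoxycholic acid, a secondary bile acid, and the series title concerns fat in the liver and the receptor PPARα. Nothing in the labels says whether the livers of a group were independent beyond being separate samples, so p-values measure the spread between these samples.

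Nuclear receptors are transcription factors, and most of them carry a pocket for a small lipid-soluble ligand that decides whether they recruit coactivators or corepressors to their target genes. In hepatocytes CAR (Nr1i3) and PXR (Nr1i2) sense drugs and bile acids and drive cytochrome P450 genes, the PPAR receptors sense fatty acids, and the glucocorticoid and thyroid hormone receptors read hormones from the blood. HNF4A keeps the hepatocyte gene programme running, and RXRα is the partner that CAR, PXR, the PPARs and the thyroid hormone receptor need to bind DNA. Activity of such receptors is set largely by ligands and cofactors, so a transcript level is a measure of the receptor gene and not of receptor activity.

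The promoters of Nr1i3 and Hnf4a, the receptor genes that passed the test in any comparison, and of Ppard, the gene that varied most between libraries, are given as the 250 bases before the annotated start of transcription (RefSeq, GRCm38.p6, the assembly of mm10). Capitals mark matches, on either strand, to the motifs searched: AGGTCA (the core to which nuclear receptors bind), GTTAAT (the core of HNF1 sites), CACGTG (the E-box bound by the clock factors) and TTATGTAA (the D-box bound by DBP).
Nr1i3, chr1:171213720-171213969, plus strand: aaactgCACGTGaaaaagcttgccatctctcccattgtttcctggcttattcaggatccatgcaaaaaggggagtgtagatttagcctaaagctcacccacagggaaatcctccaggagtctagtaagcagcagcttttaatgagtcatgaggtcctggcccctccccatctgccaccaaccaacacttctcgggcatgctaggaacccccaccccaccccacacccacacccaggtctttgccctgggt
Hnf4a, chr2:163546905-163547154, plus strand: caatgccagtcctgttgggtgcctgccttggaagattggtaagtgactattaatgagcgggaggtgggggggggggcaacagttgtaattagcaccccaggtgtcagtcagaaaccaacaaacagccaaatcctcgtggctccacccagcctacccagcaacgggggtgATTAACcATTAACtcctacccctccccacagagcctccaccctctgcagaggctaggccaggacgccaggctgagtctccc
Ppard, chr17:28232504-28232753, plus strand: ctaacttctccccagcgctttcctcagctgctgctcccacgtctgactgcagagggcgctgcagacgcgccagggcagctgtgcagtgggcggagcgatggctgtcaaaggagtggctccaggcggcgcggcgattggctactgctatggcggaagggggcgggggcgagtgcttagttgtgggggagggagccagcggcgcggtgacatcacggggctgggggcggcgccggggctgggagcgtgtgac
The Nr1i3 window held 1 CACGTG, beginning 244 bases before the start of transcription. The Hnf4a window held GTTAAT as its reverse complement ATTAAC at 81 and again at 74 bases before the start. No match to any of the 4 motifs lay in the Ppard window. The same motifs were found in 6.02% (CACGTG), 6.43% (GTTAAT), 14.0% (AGGTCA) and 0.819% (TTATGTAA) of 32851 windows of this length over all annotated promoters. Over the 13 promoter windows of 8 receptor genes that were searched, AGGTCA lay in 4, GTTAAT in 2, CACGTG in 2 and TTATGTAA in 0. A match describes the letters of a window and not a bound site.

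Reads on genes numbered between 16994353 and 20509203 per library. Levels between libraries are given as CPM, reads scaled to library size with TMM factors, and levels between genes as the authors' FPKM, which is scaled per transcript length. HFD 1 and HFD_HDCA 1 stood apart from their groups. HFD 1 had the clock output gene Dbp at 85.8 CPM against 2.27 and 1.41 CPM in the other HFD libraries. HFD_HDCA 1 had the acute phase gene Saa1 at 3371 CPM against 23.4 and 38.0 CPM in the other HFD_HDCA libraries. Of the hepatocyte markers, Alb averaged 78993 CPM and Cyp2e1 8433 CPM, while Ass1 had only 3 to 14 reads per library in the count tables and 68.4 to 188 FPKM in the FPKM tables. HFD 2 held 29 reads of Adipoq, 15 of Lep, 13 of Plin1 and 10 of Retn, all adipose transcripts, where any other library held at most 3 of each.

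Per transcript length, the receptor genes formed a ladder that spanned more than an order of magnitude. Hnf4a stood at the top with a mean of 107 FPKM over the 9 libraries (range 75.2 to 134), followed by Nr1i3 at 92.7 FPKM (57.9 to 137) and Rxra at 58.3 FPKM (42.0 to 69.2). Nr1i2 came next at 22.4 FPKM (17.2 to 25.7), then Nr3c1 at 10.6 FPKM (7.80 to 12.1) and Esrra at 8.50 FPKM (6.76 to 11). Thrb at 5.45 FPKM (2.86 to 6.94), Pparg at 5.34 FPKM (1.78 to 8.47) and Ppard at 4.01 FPKM (1.52 to 8.86) stood at the foot. The ranges of Rxra and Nr1i2 did not meet, nor did those of Nr1i2 and Nr3c1, and every other pair of neighbours in this order overlapped. In the ND livers alone Hnf4a, at 124 ± 8.80 FPKM (SD, n = 3), lay far above Nr1i3 at 59.7 ± 2.21 FPKM, while with HFD_HDCA Nr1i3 at 121 ± 14.0 FPKM stood above Hnf4a at 88.9 ± 12.0 FPKM. The coefficient of variation of CPM over all 9 libraries ran from 9.48% for Nr3c1, 10.9% for Rxra and 12.5% for Nr1i2 to 33.8% for Nr1i3, 36.4% for Pparg and 79.1% for Ppard.

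**Figure D1:**
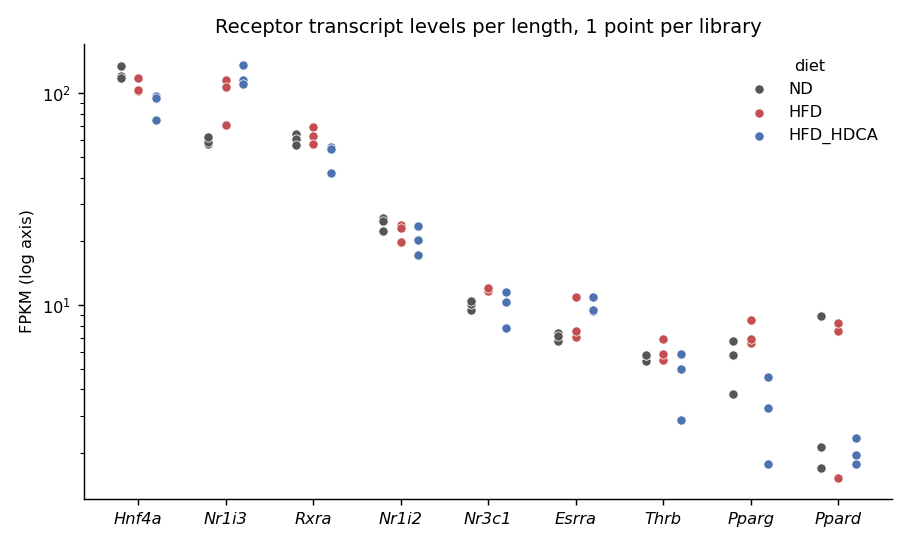
FPKM of each of the 9 receptor genes on a log axis, with 1 point per library and colours for the 3 diets. Hnf4a, Nr1i3 and Rxra occupy the upper range from 42.0 FPKM upward, Ppard splits into a high and a low set of libraries, and Nr1i3 is the gene in the upper range whose points spread most with diet.

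Each pair of diets was compared over all 12587 genes by the quasi-likelihood F test of edgeR, and a gene was said to rise or fall at a Benjamini-Hochberg adjusted p under 0.05. Under that rule 0 of the 9 receptor genes changed in HFD against ND, where 0.953% of all genes did, and 0 of 9 in HFD_HDCA against HFD, where 3.4% did. In HFD_HDCA against ND 2 of 9 changed against 6.47% of all genes, with Nr1i3 higher and Hnf4a lower. Higher and lower genes made up 0.477% and 0.477% of all genes in the first comparison, 1.67% and 1.73% in the next, and 3.65% and 2.82% in the last. These shares are the background for the gene lists given with each receptor in the edgeR fit of all 9 libraries. Fits that leave libraries out have backgrounds of their own. With 1 library left out 32 to 226, 127 to 672 and 196 to 1213 genes were called in the 3 comparisons. Without HFD 1 and HFD_HDCA 1 together 576, 977 and 1157 were called. At an edgeR p below 0.05 before adjustment the counts were 2, 2 and 4 of 9 receptor genes, against 11.5%, 22% and 26.1% of all genes. The background shares of higher and lower genes at that p were 6.67% and 4.83%, 11.6% and 10.4%, and 14.8% and 11.4% in the same order. DESeq2's Wald test called 0, 1 and 2 receptor genes, the additional call being a fall of Pparg in HFD_HDCA against HFD. Over all genes it called 380, 1085 and 1398 in the same order. Of these 191 were higher and 189 lower in the first comparison, 583 and 502 in the next, and 729 and 669 in the last. These numbers are the background for list counts from that test. The median log2 fold change of the 9 genes was 0.13 in HFD against ND, -0.17 in HFD_HDCA against HFD and -0.27 in HFD_HDCA against ND, beside medians of 0.02, -0.002 and 0.03 over all genes. The 3 comparisons share libraries and are therefore not independent of each other. In bulk liver, fewer cells that carry a transcript and less of it per cell cannot be told apart.

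Libraries of the 2 groups did not overlap for 3 of 9 receptor genes in HFD against ND (20.1% of all genes), for 2 in HFD_HDCA against HFD (22.4%) and for 5 in HFD_HDCA against ND (33.9%). HFD_HDCA 1 held the lowest level of 5 of the 9 genes, namely Rxra, Hnf4a, Pparg, Nr3c1 and Thrb, and the highest level of Esrra. The part of that library's acute phase transcripts in these levels was not tested.

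**Figure D2:**
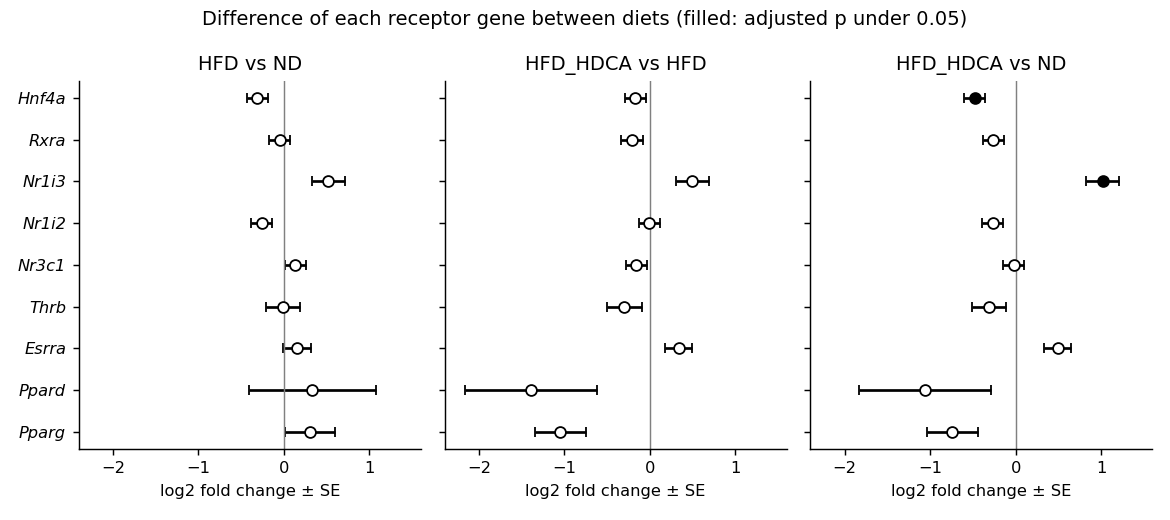
Log2 fold change of each receptor gene with its standard error in the 3 comparisons (edgeR, 3 libraries per group), with filled points for an adjusted p under 0.05. The filled points are Nr1i3 at 1.02 and Hnf4a at -0.48 in HFD_HDCA against ND, and the widest error bars are those of Ppard.

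**Figure D3:**
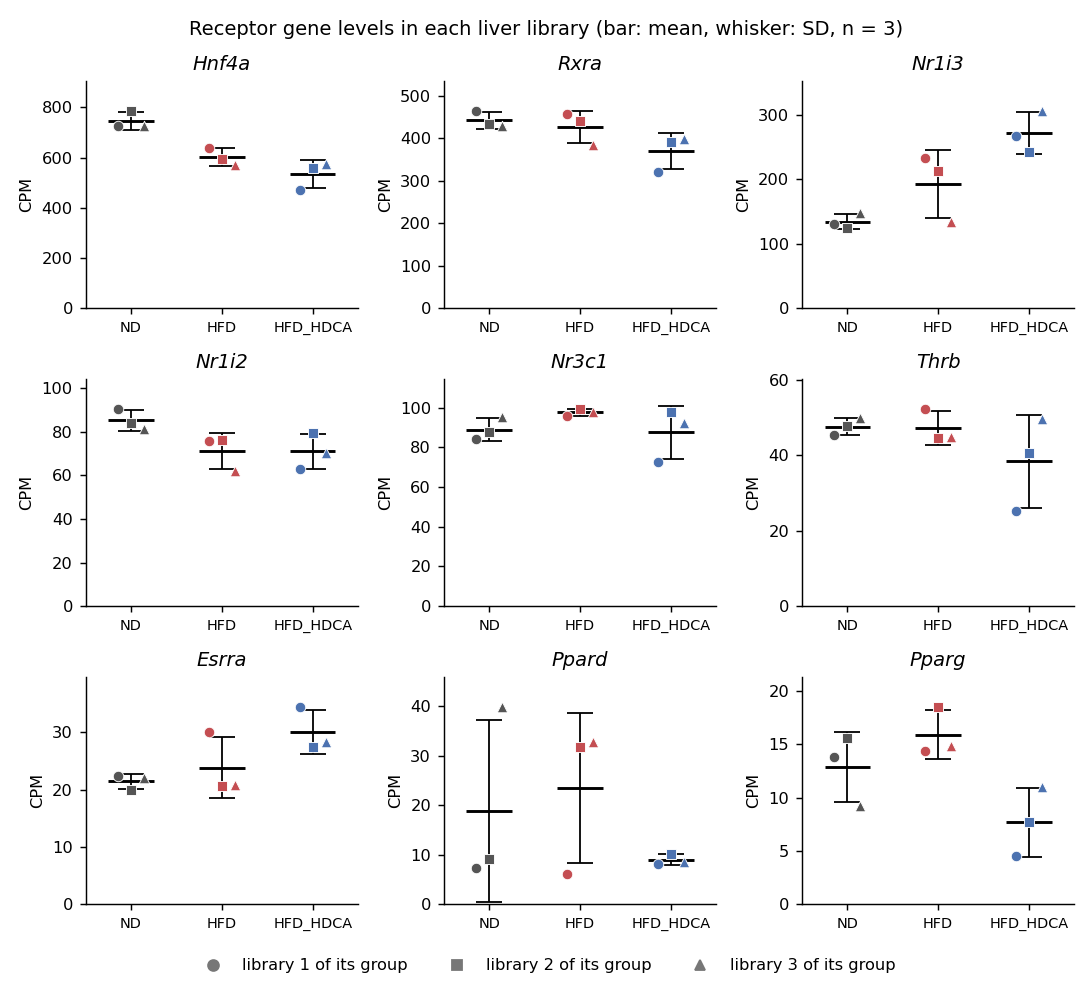
CPM of each receptor gene in every library, 1 panel per gene, with axes that start at 0; the bar is the group mean and the whiskers span 1 SD (n = 3). Nr1i3 is above the ND livers in all 3 HFD_HDCA livers, Hnf4a is below them in all 6 high-fat livers, and Ppard is high in ND 3, HFD 2 and HFD 3.

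Nr1i3, which encodes the xenobiotic receptor CAR (chromosome 1, 171213970 to 171218845, mm10), was on the CPM scale higher in every liver of the high-fat diet with hyodeoxycholic acid than in any other liver. It stood at 131, 125 and 147 CPM in ND 1, 2 and 3, at 233, 212 and 133 CPM in HFD 1, 2 and 3, and at 267, 242 and 306 CPM in HFD_HDCA 1, 2 and 3. The HFD livers spanned the gap, since HFD 3 lay within the ND range while the other HFD livers lay above it. On the FPKM scale HFD 1 at 115.7 FPKM lay above HFD_HDCA 1 at 115.5 and HFD_HDCA 2 at 110.2 FPKM, so those groups overlapped there. The rise from ND to HFD_HDCA was a log2 fold change of 1.02 ± 0.19 (SE), or 2.02-fold, with an edgeR adjusted p of 0.0149. The steps from ND to HFD, 0.52 ± 0.19 (adjusted p = 0.318), and from HFD to HFD_HDCA, 0.50 ± 0.19 (adjusted p = 0.169), did not pass. These steps were 0.73 and 0.29 without HFD 3, 0.36 and 0.65 without HFD 1, and 0.68 and 0.33 on the log2(FPKM + 0.1) scale. In the 9 fits that each left out 1 library the rise from ND to HFD_HDCA stayed between 0.92 and 1.10. It passed in 6 of them and missed without ND 1 (adjusted p = 0.0794), ND 2 (0.0658) or HFD_HDCA 3 (0.0606). The last exons of Nr1i3 overlap Tomm40l on the map, a gene with at most 267 reads in any library against 2300 or more for Nr1i3.

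Nr1i2, which encodes PXR, the other xenobiotic receptor (chromosome 16, 38248349 to 38294824), did not pass in any comparison. It stood at 90.5, 84.0 and 81.2 CPM in ND 1, 2 and 3, at 75.7, 76.2 and 61.7 CPM in HFD 1, 2 and 3, and at 62.9, 79.3 and 70.4 CPM in HFD_HDCA 1, 2 and 3. All 6 high-fat livers were below all 3 ND livers on the CPM scale, while on the FPKM scale HFD 1 (23.8), HFD 2 (23.2) and HFD_HDCA 2 (23.7) lay above ND 3 at 22.4 FPKM. The log2 fold changes against ND were -0.26 ± 0.12 for HFD (adjusted p = 0.465) and -0.27 ± 0.12 for HFD_HDCA (adjusted p = 0.198), so neither passed. The first was -0.17 without HFD 3 and -0.13 on the log2(FPKM + 0.1) scale. Between HFD_HDCA and HFD the difference was -0.01 ± 0.12 (adjusted p = 0.983).

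Rxra, the shared partner RXRα (chromosome 2, 27677201 to 27763319), was among the steadiest of the 9. It stood at 465, 434 and 428 CPM in ND 1, 2 and 3, at 456, 439 and 384 CPM in HFD 1, 2 and 3, and at 320, 390 and 397 CPM in HFD_HDCA 1, 2 and 3. The HFD_HDCA livers lay below the ND livers without overlap and overlapped the HFD livers. The log2 fold change of HFD_HDCA was -0.26 ± 0.13 against ND (adjusted p = 0.221) and -0.21 ± 0.13 against HFD (adjusted p = 0.360). Without HFD_HDCA 1 these were -0.17 and -0.10, and the second was -0.04 without HFD 1 and HFD_HDCA 1 together and -0.32 on the log2(FPKM + 0.1) scale. HFD against ND gave -0.05 ± 0.13 (adjusted p = 0.924), a value that turned to 0.05 on the FPKM scale.

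Genes listed as targets of CAR and PXR in mouse liver, 29 of which 26 were tested, had more members that fell than rose in each comparison. Of these 2 rose and 4 fell in HFD against ND, in HFD_HDCA against HFD 1 rose and 4 fell, and in HFD_HDCA against ND 2 rose and 11 fell. The medians of the tested members were -0.48, -0.48 and -0.85 on the log2 scale. Cyp3a11, the main drug and bile acid hydroxylase of the PXR response, fell from 5306 ± 960 CPM in ND to 697 ± 418 CPM in HFD_HDCA (SD, 3 libraries each), with -2.93 ± 0.39 on the log2 scale and an adjusted p of 0.00429. Cyp2c29, a cytochrome induced through CAR, fell from 1817 ± 71.8 CPM in ND to 544 ± 95.2 CPM in HFD_HDCA (-1.74 ± 0.18, adjusted p = 0.00124), and it also fell from the 1005 ± 216 CPM of HFD (-0.89 ± 0.18, adjusted p = 0.0280). Ces2a, a carboxylesterase, fell from 480 ± 15.5 CPM in ND to 133 ± 18.5 CPM in HFD (-1.85 ± 0.18, adjusted p = 0.00314) and stood at 132 ± 33.5 CPM in HFD_HDCA. Cyp2c54 fell from 377 ± 17.5 CPM in ND to 200 ± 40.3 CPM in HFD (-0.91 ± 0.15, adjusted p = 0.0231).

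The 2 members that rose in HFD against ND were the paired genes Cyp2b9 and Cyp2b13, which are known to be higher in female than in male mouse liver. The part of CAR or PXR in their levels was not tested. The sex of the mice is not given in the labels. Cyp2b9 had 18, 8 and 0 reads in ND 1, 2 and 3, where it stood at 169, 281 and 153 CPM in HFD 1, 2 and 3 and at 58.9, 92.6 and 146 CPM in HFD_HDCA 1, 2 and 3 (log2 fold change of HFD_HDCA against ND 7.70 ± 0.68, adjusted p = 0.00146). The high-fat groups did not overlap ND. Cyp2b13 held 1, 1 and 0 reads in the ND libraries, 105, 193 and 54 in the HFD libraries and 1, 3 and 10 in the HFD_HDCA libraries. Its fall from HFD to HFD_HDCA passed (log2 fold change -4.42 ± 0.65, adjusted p = 0.00925). Aldh1a7 and Abcb1a also fell from HFD to HFD_HDCA, by 0.89 and 1.40 on the log2 scale (adjusted p = 0.0441 and 0.0392). Cytochromes of the Cyp2b, Cyp2c and Cyp3a families resemble each other closely, and reads without a unique alignment were set apart in the counts. Such reads made up 16.6 to 19.4% of an ND library and 13.3 to 16.0% of a high-fat library. Reads of these genes may thus be lost, and single levels are uncertain.

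In the fits without 1 library, Ces2a, Cyp2b9 and Cyp2b13 passed in 9 of 9 for HFD against ND, and so did Cyp3a11, Cyp2c29, Ces2a and Cyp2b9 for HFD_HDCA against ND. Cyp2c54 passed in 5 of 9, and missed without any ND library or without HFD 3. Cyp2c29 in HFD_HDCA against HFD passed in 6, Aldh1a7 in 1 and Abcb1a in 1. The number of list members that fell in HFD_HDCA against ND was 5 without ND 1, 8 without ND 2, 7 without ND 3 and 8 without HFD_HDCA 3, and 9 to 12 without any other library. In HFD against ND it was 1 without any ND library or without HFD 3, and 8 without HFD_HDCA 1. In HFD_HDCA against HFD it was 1 without ND 1, ND 2 or HFD 2 and 2 without ND 3, HFD 3, HFD_HDCA 2 or HFD_HDCA 3. Without HFD 1 and HFD_HDCA 1 together 8, 6 and 12 members fell in HFD against ND, HFD_HDCA against HFD and HFD_HDCA against ND. Over all genes 308, 446 and 544 fell in that fit.

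**Figure D4:**
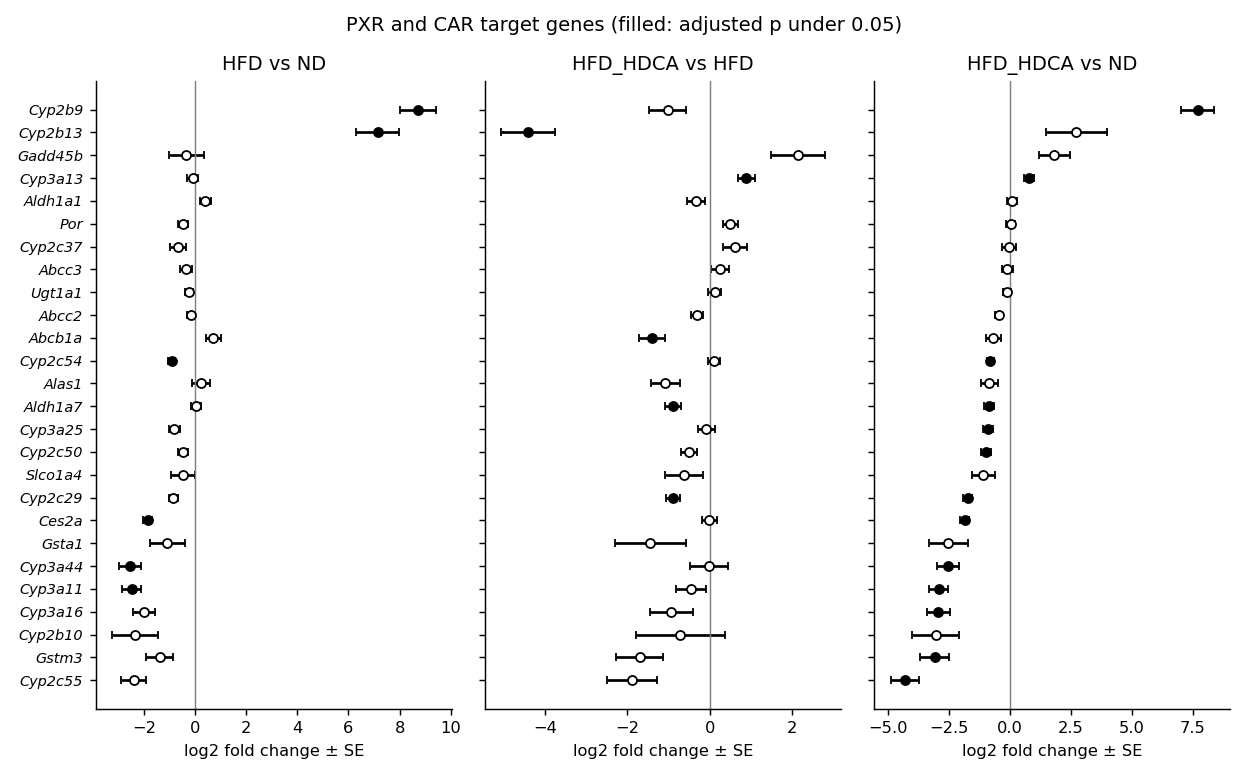
Log2 fold change with standard error for the 26 tested genes of the CAR and PXR list in the 3 comparisons, with filled points for an adjusted p under 0.05 (edgeR, 3 libraries per group); the panels have different horizontal scales. In HFD_HDCA against ND 11 filled points lie left of 0 and 2 lie right of it.

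Hnf4a, the receptor that maintains hepatocyte identity (chromosome 2, 163547188 to 163572907), was lower in all 6 high-fat livers than in any ND liver. It stood at 725, 786 and 727 CPM in ND 1, 2 and 3, at 639, 596 and 568 CPM in HFD 1, 2 and 3, and at 472, 559 and 573 CPM in HFD_HDCA 1, 2 and 3. HFD and HFD_HDCA overlapped, and HFD_HDCA 1 was the lowest library. The fall from ND to HFD_HDCA was -0.48 ± 0.12 on the log2 scale, or 1.39-fold, with an edgeR adjusted p of 0.0431. HFD against ND gave -0.31 ± 0.12 (adjusted p = 0.345) and HFD_HDCA against HFD gave -0.17 ± 0.12 (adjusted p = 0.443). The latter was -0.07 without HFD_HDCA 1, -0.02 without HFD 1 and HFD_HDCA 1 together and -0.29 on the log2(FPKM + 0.1) scale. The call lay close to the threshold. In the fits without 1 library the value stayed between -0.53 and -0.40, and the call held in 2 of 9, without HFD 1 and without HFD_HDCA 2. The adjusted p without each other library lay between 0.0527 (HFD 2) and 0.150 (ND 2), with 0.135 without ND 1, 0.109 without ND 3, 0.0566 without HFD 3, 0.0650 without HFD_HDCA 1 and 0.0835 without HFD_HDCA 3. The locus in the deposited tables begins close to the promoter shown above, and RefSeq places a further start of Hnf4a at 163506811.

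Genes with established HNF4A control, 23 tested of 24 listed, moved in both directions. EdgeR called 0 of them in HFD against ND, with 6 higher and 2 lower at a p below 0.05 before adjustment, while DESeq2's test gave 4 higher and 1 lower. In HFD_HDCA against HFD Apom, a lipoprotein component, rose from 166 ± 13.3 to 343 ± 101 CPM (1.04 ± 0.18, adjusted p = 0.0153), and the glucose transporter gene Slc2a2 fell from 309 ± 34.4 to 151 ± 19.2 CPM (-1.03 ± 0.17, adjusted p = 0.0140). In HFD_HDCA against ND 2 rose and 2 fell, with 12 higher and 4 lower at a p below 0.05 before adjustment, while DESeq2's test gave 7 higher and 2 lower. Apoc2, the cofactor of lipoprotein lipase, rose from 178 ± 15.6 to 416 ± 146 CPM (1.22 ± 0.23, adjusted p = 0.0132), and Apoa4 rose from 64.0 ± 7.02 to 992 ± 620 CPM (3.95 ± 0.74, adjusted p = 0.0214). Coagulation factor F11 fell from 91.1 ± 4.74 to 57.7 ± 11.9 CPM (-0.66 ± 0.14, adjusted p = 0.0254). The list medians were 0.16, 0.09 and 0.35 on the log2 scale in the 3 comparisons. Without 1 library, Apom and Slc2a2 passed in 8 of 9 fits each, missing without HFD 2 and without HFD_HDCA 3 in that order, Apoc2 in 7, Apoa4 in 5 and F11 in 4. The count for HFD_HDCA against ND came to 0 without ND 1, 1 without ND 2 or HFD_HDCA 3 and 2 without ND 3. It was 6 higher and 3 lower without HFD 1 and HFD_HDCA 1 together, where 613 and 544 of all genes were.

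Pparg, the fatty acid receptor that drives fat storage in adipocytes and in fatty hepatocytes (chromosome 6, 115361221 to 115490401), was lowest with hyodeoxycholic acid. It stood at 13.8, 15.6 and 9.20 CPM in ND 1, 2 and 3, at 14.4, 18.5 and 14.8 CPM in HFD 1, 2 and 3, and at 4.48, 7.67 and 11 CPM in HFD_HDCA 1, 2 and 3. All 3 HFD_HDCA livers were below all 3 HFD livers, and HFD_HDCA 3 lay above ND 3. HFD_HDCA against HFD gave -1.04 ± 0.30 on the log2 scale with an edgeR p of 0.00557 and an adjusted p of 0.0855, which did not pass. DESeq2 gave the same size with an adjusted p of 0.0129. Against ND the values were 0.30 ± 0.29 for HFD (adjusted p = 0.758) and -0.74 ± 0.30 for HFD_HDCA (adjusted p = 0.151). The highest library, HFD 2, was also the one with reads of the adipose transcripts Adipoq, Lep, Plin1 and Retn. Its summed level of 7 adipocyte markers was 50.4 CPM against 14.5 to 36.5 CPM elsewhere, and its summed level of 11 macrophage markers was 190 CPM against 474 to 1149 CPM. Without HFD 2 the difference was -0.92 (adjusted p = 0.200), and without HFD_HDCA 1 it was -0.76 (adjusted p = 0.129).

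Lipid storage genes that respond to PPARγ, 14 tested of 18 listed, of which 4 are also adipocyte markers, had medians of 1.09, -0.26 and 0.80 on the log2 scale in HFD against ND, HFD_HDCA against HFD and HFD_HDCA against ND. In HFD against ND 0 passed with edgeR, with 7 higher and 1 lower at a p below 0.05 before adjustment, while DESeq2's test gave 4 higher and 1 lower. Fitm2, which promotes lipid droplet formation, rose from 29.1 ± 2.58 CPM in ND and 32.6 ± 3.99 CPM in HFD to 52.6 ± 11.1 CPM in HFD_HDCA (0.85 ± 0.16, adjusted p = 0.0149 against ND; 0.69 ± 0.16, adjusted p = 0.0458 against HFD). G0s2, an inhibitor of the lipase ATGL, rose from 50.8 ± 17.0 CPM in ND to 518 ± 311 CPM in HFD_HDCA (3.35 ± 0.65, adjusted p = 0.0239). These were the list's only calls, with 1 in HFD_HDCA against HFD and 2 in HFD_HDCA against ND. Fitm2 against HFD passed in 1 of 9 fits without a library, the one without HFD_HDCA 1. Against ND Fitm2 passed in 6, missing without ND 1, ND 3 or HFD_HDCA 3, and G0s2 in 5, missing without any ND library or HFD_HDCA 3.

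Ppard, the fatty acid receptor expressed in most tissues (chromosome 17, 28232754 to 28301469), varied most of the 9, and its split of the libraries did not follow the diets. It stood at 7.34, 9.11 and 39.9 CPM in ND 1, 2 and 3, at 6.01, 31.7 and 32.8 CPM in HFD 1, 2 and 3, and at 8.18, 10.2 and 8.60 CPM in HFD_HDCA 1, 2 and 3. ND 3, HFD 2 and HFD 3 were high and the remaining 6 libraries low, with no value between 10.2 and 31.7 CPM. In reads these were 690, 627 and 630 against 111 to 175. The FPKM tables gave the same 3 high libraries, at 8.86, 7.55 and 8.23 FPKM in ND 3, HFD 2 and HFD 3. No diet comparison passed. HFD against ND gave 0.33 ± 0.74 on the log2 scale (adjusted p = 0.918), HFD_HDCA against HFD gave -1.39 ± 0.77 (adjusted p = 0.332) and HFD_HDCA against ND gave -1.06 ± 0.77 (adjusted p = 0.417). Without ND 3 the last value was 0.13 and the first was 1.51, and without any other library the first lay between -0.06 and 0.78.

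The 3 libraries high in Ppard were those lowest in Dbp, a transcription factor gene of the clock output, and highest in Arntl, which encodes the core clock activator BMAL1. Dbp stood at 0.752, 2.27 and 1.41 CPM in ND 3, HFD 2 and HFD 3, and at 2.79 to 85.8 CPM in the other 6. Arntl stood at 42.9, 41.1 and 37.6 CPM in ND 3, HFD 2 and HFD 3, and at 4.71 to 36.6 CPM in the other 6. At the far end HFD 1 had the lowest Ppard, the highest Dbp and the lowest Arntl. The order of the libraries by falling Ppard was that by rising Dbp except for ND 2 and HFD_HDCA 3, which changed places. The steps were unequal, since HFD_HDCA 2 and HFD 2 lay close in Dbp (2.79 and 2.27 CPM) and in Arntl (36.6 and 41.1 CPM) and far apart in Ppard (10.2 and 31.7 CPM). The relation was noticed in these data, and the part of the clock in the levels of Ppard was not tested. All groups were sampled fed, and hours of dissection are not given in the sources used here.

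The genes beside Ppard on the chromosome, looked up after its values were seen, did not split the libraries in this way. Zfp523 stood between 21.0 and 24.3 CPM and Fance between 7.03 and 10.6 CPM in the 9 libraries. A long non-coding RNA gene within Ppard, 1810013A23Rik, had 0 reads in every library. Genes that respond to PPARδ ligands, 9 tested of 11 listed and largely shared with PPARα, had medians of 0.12, 0.71 and 0.89 on the log2 scale in the 3 comparisons. EdgeR called 0 of them in HFD against ND, with 1 higher and 2 lower at a p below 0.05 before adjustment, while DESeq2's test gave 1 lower. Slc25a20, the carnitine carrier of mitochondria, rose from 130 ± 15.2 CPM in ND and 149 ± 23.1 CPM in HFD to 244 ± 21.8 CPM in HFD_HDCA (0.91 ± 0.14, adjusted p = 0.00698 against ND; 0.71 ± 0.14, adjusted p = 0.0280 against HFD). Cpt1a, the gate of fatty acid entry into mitochondria, rose from 385 ± 70.9 CPM in ND to 712 ± 76.0 CPM in HFD_HDCA (0.89 ± 0.16, adjusted p = 0.0121). These were the list's calls, 1 and 2 in number. Slc25a20 against ND passed in 9 of 9 fits without a library, and against HFD in 6, missing without ND 1, HFD 3 or HFD_HDCA 3, and Cpt1a passed in 7, missing without ND 1 or ND 3.

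**Figure D5:**
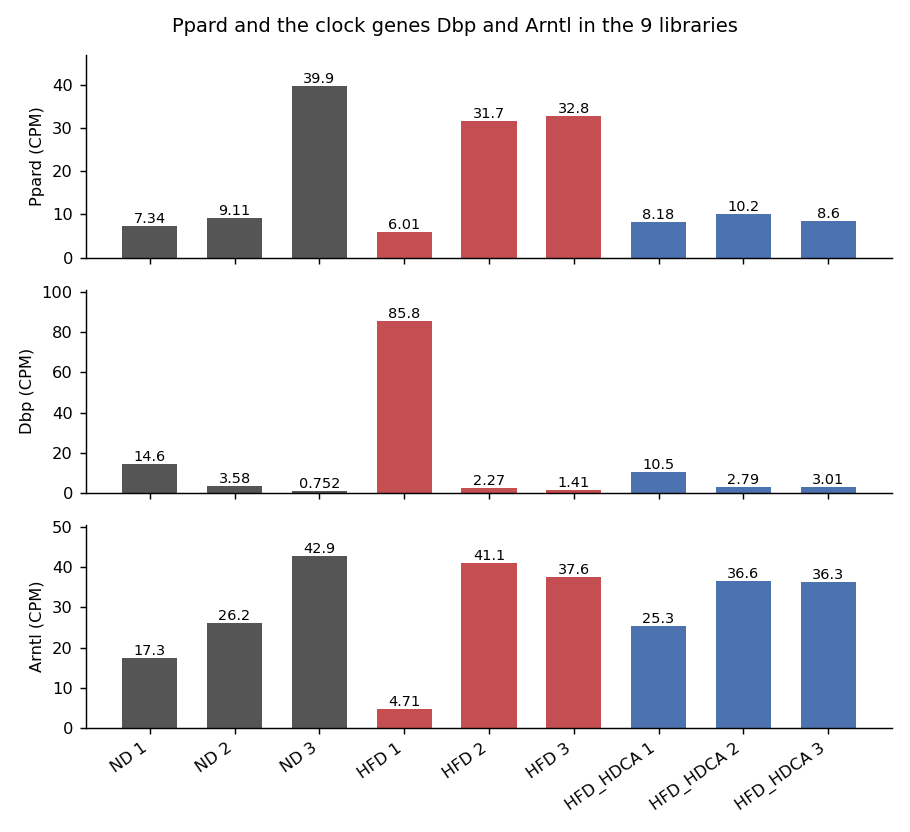
CPM of Ppard, Dbp and Arntl in each of the 9 libraries, as bars from 0 with the value above each bar and colours for the diets. ND 3, HFD 2 and HFD 3 carry the 3 tallest Ppard bars, at 39.9, 31.7 and 32.8 CPM, together with the 3 smallest Dbp values and the 3 largest Arntl values.

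Esrra, which encodes ERRα, an orphan receptor of the mitochondrial gene programme (chromosome 19, 6910977 to 6921808), was higher in all 3 HFD_HDCA livers than in any ND liver. It stood at 22.4, 19.9 and 22.0 CPM in ND 1, 2 and 3, at 30.1, 20.7 and 20.8 CPM in HFD 1, 2 and 3, and at 34.5, 27.4 and 28.4 CPM in HFD_HDCA 1, 2 and 3. HFD 1 was the only HFD liver within the HFD_HDCA range, and the other HFD livers lay at the ND level. HFD_HDCA against ND gave 0.49 ± 0.16 on the log2 scale with an adjusted p of 0.0929, which did not pass. HFD_HDCA against HFD gave 0.34 ± 0.16 (adjusted p = 0.247), and HFD against ND gave 0.15 ± 0.16 (adjusted p = 0.780). Leaving out HFD 1 changed both calls. Without it HFD_HDCA against HFD was 0.54 (adjusted p = 0.0475), HFD_HDCA against ND was 0.49 (adjusted p = 0.0341) and HFD against ND was -0.05. HFD_HDCA against ND also passed without HFD 1 and HFD_HDCA 1 together (0.38, adjusted p = 0.0464) and with only its own groups fitted (0.49, adjusted p = 0.0481). The gene's end overlaps Trmt112 on the map, a gene with at most 308 reads in any library against 368 to 570 for Esrra.

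Mitochondrial and fuel genes with established ERR control, 16 tested of 18 listed, had medians of 0.01, 0.05 and 0.16 on the log2 scale in the 3 comparisons. The calls were 0, 0 and 1. Acadm, the medium-chain acyl-CoA dehydrogenase, rose from 411 ± 31.7 CPM in ND to 726 ± 113 CPM in HFD_HDCA (0.82 ± 0.17, adjusted p = 0.0228). It passed in 5 of 9 fits without a library and missed without any ND library or HFD_HDCA 3. In the first 2 comparisons edgeR gave 0 and 3 members higher and 0 lower at a p below 0.05 before adjustment, while DESeq2's test gave 0. Without HFD 1 the calls in HFD_HDCA against HFD and against ND were 1 and 2, beside 672 and 1025 over all genes.

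Nr3c1, the glucocorticoid receptor gene (chromosome 18, 39410545 to 39487245), was the steadiest of the 9. It stood at 84.0, 87.9 and 95.1 CPM in ND 1, 2 and 3, at 95.5, 99.5 and 97.6 CPM in HFD 1, 2 and 3, and at 72.6, 98.0 and 92.1 CPM in HFD_HDCA 1, 2 and 3. The HFD livers lay just above the ND livers without overlap, and HFD_HDCA 1 lay below all others. The log2 fold changes were 0.13 ± 0.12 for HFD against ND (adjusted p = 0.747), -0.16 ± 0.12 for HFD_HDCA against HFD (adjusted p = 0.480) and -0.02 ± 0.12 for HFD_HDCA against ND (adjusted p = 0.924). Without HFD_HDCA 1 the second was -0.02, and on the log2(FPKM + 0.1) scale it was -0.28.

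Genes induced through the glucocorticoid receptor, all 22 listed and tested, had medians of -0.42, -0.14 and -0.34 on the log2 scale in the 3 comparisons. The calls were 0, 0 and 3, all 3 lower. Tat, the tyrosine aminotransferase, fell from 2540 ± 151 CPM in ND to 759 ± 29.4 CPM in HFD_HDCA (-1.74 ± 0.32, adjusted p = 0.0146). Klf9 fell from 118 ± 11.4 to 79.9 ± 2.11 CPM (-0.56 ± 0.13, adjusted p = 0.0275) and Cebpd from 6.06 ± 1.20 to 2.71 ± 0.572 CPM (-1.16 ± 0.27, adjusted p = 0.0304). The counts moved with HFD 1, and Per1, a clock gene, is among the 22 members. The mean centred log2 CPM of the list was 0.20 in HFD 1 and 0.37 in HFD_HDCA 1, beside 0.19 to 0.36 in the ND libraries. It was -0.50 and -0.30 in HFD 2 and 3, and -0.36 and -0.31 in HFD_HDCA 2 and 3. The cause of this split was not tested. Without HFD 1 4 members fell in HFD against ND, where 102 of all genes did. In HFD_HDCA against ND 9 members fell and 1 rose without HFD 1, where 483 of all genes fell and 542 rose. The last comparison had 0 calls without ND 1 or HFD_HDCA 3, 1 without ND 2 or ND 3 and 5 without HFD 2. In the first 2 comparisons edgeR gave 1 and 3 members higher and 7 and 5 lower at a p below 0.05 before adjustment, while DESeq2's test gave 0 and 1 higher and 3 and 1 lower. Without 1 library Tat passed in 6 of 9 fits, Klf9 in 4 and Cebpd in 4.

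Thrb, the main thyroid hormone receptor of hepatocytes (chromosome 14, 17660960 to 18038088), did not pass in any comparison. It stood at 45.3, 47.8 and 49.8 CPM in ND 1, 2 and 3, at 52.4, 44.7 and 44.8 CPM in HFD 1, 2 and 3, and at 25.2, 40.7 and 49.5 CPM in HFD_HDCA 1, 2 and 3. HFD_HDCA 1 stood far below all other libraries, and the groups overlapped in each comparison. HFD_HDCA gave -0.31 ± 0.20 against ND (adjusted p = 0.353) and -0.30 ± 0.20 against HFD (adjusted p = 0.413). Without HFD_HDCA 1 these values were -0.08 and -0.06. HFD against ND gave -0.01 ± 0.20 (adjusted p = 0.990), and the sign of this value turned on the FPKM scale.

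Genes induced by thyroid hormone in mouse liver, all 15 listed and tested, had medians of 0.47, -0.38 and -0.51 on the log2 scale in HFD against ND, HFD_HDCA against HFD and HFD_HDCA against ND. In HFD against ND 1 rose, in HFD_HDCA against HFD 3 fell, and in HFD_HDCA against ND 2 rose and 2 fell. Those that moved with the hyodeoxycholic acid diet against HFD were lipogenic genes. Thrsp, the hepatic Spot 14 gene, fell from 235 ± 75.0 CPM in HFD to 21.7 ± 7.06 CPM in HFD_HDCA (-3.44 ± 0.42, adjusted p = 0.00625), and its relative Mid1ip1 fell from 85.5 ± 7.26 to 25.2 ± 6.21 CPM (-1.76 ± 0.19, adjusted p = 0.00283). Fasn, the fatty acid synthase, fell from 747 ± 562 to 104 ± 25.3 CPM (-2.84 ± 0.49, adjusted p = 0.0220). Mid1ip1 had risen from 37.2 ± 6.20 CPM in ND to its HFD level (1.20 ± 0.19, adjusted p = 0.0189). Dio1, the deiodinase that is itself a marker of thyroid hormone action, rose from 139 ± 20.1 CPM in ND to 251 ± 31.4 CPM in HFD_HDCA (0.85 ± 0.16, adjusted p = 0.0126). Cpt1a also rose, and Thrsp and Klf9 fell, from ND to HFD_HDCA. Without 1 library Thrsp and Mid1ip1 against HFD passed in 9 of 9 fits, Fasn in 7, Dio1 in 7 and Mid1ip1 in HFD against ND in 5. For HFD_HDCA against ND the calls came to 0 without ND 1, 1 without ND 3, 2 without HFD_HDCA 3 and 6 without HFD 3.

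The cofactors through which these receptors act, 20 genes all tested, had medians of -0.15, -0.23 and -0.28 on the log2 scale. In the fit of all 9 libraries 0 rose in each comparison, and 0, 1 and 3 fell in the order given. HFD_HDCA 1 stood apart, with a summed level of 1416 CPM against 2141 and 2140 CPM in HFD_HDCA 2 and 3 and 1982 to 2360 CPM in the ND libraries. Without HFD 1 and HFD_HDCA 1 together 1 member rose in HFD_HDCA against HFD, where 531 of all genes did. Lpin1, a phosphatidate phosphatase that also coactivates PPARα, fell from 118 ± 31.0 CPM in ND to 19.0 ± 0.0997 CPM in HFD_HDCA (-2.64 ± 0.40, adjusted p = 0.00898). Crebbp, the histone acetyltransferase CBP, fell from 19.1 ± 2.74 to 11.4 ± 2.35 CPM (-0.74 ± 0.17, adjusted p = 0.0279). Lpin1 against ND passed in 9 of 9 fits without a library and Crebbp in 5. In HFD_HDCA against HFD the count came to 0 without ND 1, ND 2, HFD 3 or HFD_HDCA 3, and 5 cofactors fell against ND without HFD_HDCA 2. In HFD against ND edgeR gave 0 members higher and 4 lower at a p below 0.05 before adjustment, while DESeq2's test gave 1 lower. At that p 0 were higher and 9 lower in HFD_HDCA against ND, where DESeq2 called 0 higher and 6 lower.

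The rest of the nuclear receptor family, 40 genes of which 30 were tested, gave medians of -0.01, -0.05 and -0.02 on the log2 scale. Rxrg, which encodes RXRγ, rose from 3.68 ± 0.494 CPM in ND to 7.83 ± 1.59 CPM in HFD (1.09 ± 0.20, adjusted p = 0.0322) and to 6.54 ± 0.838 CPM in HFD_HDCA (0.83 ± 0.20, adjusted p = 0.0382). Nr1h4, the bile acid receptor FXR, rose from 103 ± 14.8 to 169 ± 12.6 CPM between ND and HFD_HDCA (0.71 ± 0.15, adjusted p = 0.0202), and the orphan receptor Nr6a1 fell from 15.6 ± 1.03 to 7.69 ± 2.01 CPM (-1.02 ± 0.20, adjusted p = 0.0182). The calls were thus 1 higher in HFD against ND, and 2 higher and 1 lower in HFD_HDCA against ND. In HFD_HDCA against HFD 0 passed with edgeR, with 3 higher and 3 lower at a p below 0.05 before adjustment, while DESeq2's test gave 1 lower. Without 1 library Nr1h4 and Nr6a1 passed in 6 of 9 fits, and Rxrg in 3 against ND for HFD and in 2 for HFD_HDCA. The calls in HFD_HDCA against ND came to 0 without ND 1 or ND 2 and to 1 without ND 3.

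The genes whose course over the 9 libraries lay closest to each receptor gene were taken by the root mean square difference of centred log2 CPM, among 10252 genes with at least 2 CPM. For Nr1i3, whose own spread by this measure was 0.47, the closest were Slc17a1, a phosphate and urate transporter gene (0.11), Accn5 (0.17) and D16H22S680E (0.20). Hnf4a, with a spread of 0.22, was followed by Magi3 (0.04), Cdk8 (0.05) and Zfp592 (0.07), and Esrra, with a spread of 0.27, by the glucagon receptor gene Gcgr (0.08), Pbld1 (0.09) and Lrrc29 (0.09). The genes nearest to Ppard by this measure, which also counts a difference in amplitude, were Igfbp5 (0.55), Onecut1 (0.55) and Ltbp1 (0.57), at a spread of 1.0. Pparg, with a spread of 0.59, had Urb1 (0.23), Mras (0.24) and Pprc1 (0.25). The steadier genes had companions within 0.11, among them Epn1 for Nr1i2, Ddx19b for Rxra, Rufy1 for Nr3c1 and Ercc6 for Thrb.

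The clock list, 15 tested of 17, had 0 calls in HFD against ND with edgeR (3 higher and 1 lower at a p below 0.05 before adjustment, and 1 higher with DESeq2), 2 lower in HFD_HDCA against HFD (Per2 and Bhlhe40) and 1 lower in HFD_HDCA against ND (Per2). Per2 passed in 9 of 9 fits without a library against HFD and in 3 against ND, and Bhlhe40 in 4. The acute phase list, all 18 tested, had 0 calls in HFD against ND (0 at a p below 0.05 before adjustment and 0 with DESeq2) and 1 lower, Steap4, in each of the other comparisons, with Steap4 passing in 9 and 8 of 9 fits without a library. Most members were nonetheless higher, with list medians of 0.89 in HFD_HDCA against HFD and 0.91 in HFD_HDCA against ND. At an edgeR p below 0.05 before adjustment 5 were higher and 1 lower in the former, and 9 higher and 1 lower in the latter. DESeq2's test called 1 higher and 1 lower in the former, and 4 higher and 1 lower in the latter. Without HFD_HDCA 2, 7 acute phase genes were higher in HFD_HDCA against ND, where 795 of all genes were. The list had a summed level of 48856 CPM in HFD_HDCA 1 against 19594 to 23080 CPM in the ND libraries. HFD_HDCA 2 and 3, at 20937 and 22245 CPM, lay within that ND range. The mean centred log2 CPM of the tested members was 2.06 in HFD_HDCA 1. It was -0.68 and -0.27 in HFD_HDCA 2 and 3, and -0.47 to -0.14 in the ND libraries. The higher level was thus that of HFD_HDCA 1 and not of the whole group. No marker list of a cell type other than hepatocytes had a call in edgeR in any comparison, and each such list had at most 3 members in either direction at a p below 0.05 before adjustment. At a p below 0.05 before adjustment the 4 tested B cell markers had 3 higher in HFD_HDCA against HFD, with summed levels of 5.05 to 7.57 CPM against 2.07 to 3.74 CPM. Of the hepatocyte markers 9 of 10 were matched and tested. In HFD_HDCA against ND their median was 0.16 on the log2 scale, with 6 values above 0 and 3 below. At an edgeR p below 0.05 before adjustment 3 were higher and 1 lower there. The 1 that passed was Cps1, which fell from 3237 ± 371 to 1500 ± 262 CPM (-1.11 ± 0.17, adjusted p = 0.00619).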

How the data were processed

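RNA from 9 mouse livers, 3 per diet, was sequenced after TruSeq library preparation, and the groups and replicate numbers come from the sample titles. The authors deposited raw HTSeq read counts per gene, which are not normalized, and FPKM from Cufflinks, scaled by transcript length and mapped fragments, per the file headers and names. TopHat 1.3.2 and Cufflinks 2.0.2 and the mm10 build appear in the submitters' processing notes, and the annotation and the strand setting of the counting are not given in the sources used here. Since the names of the count tables hold the word antisense, reads of genes that overlap on opposite strands, such as Nr1i3 with Tomm40l or Esrra with Trmt112, could not be assigned to a strand with certainty. Reads assigned to no gene made up the remainder of each file, and 63.9 to 72.1% of a library lay on genes. At this depth 3 reads, the limit that a count of 0 allows, equal 0.152 to 0.182 CPM, which covers counting error only. Pairs of libraries within a group had a chi-square of 11.1 to 90.8 per degree of freedom, more than counting error alone gives. No library thus differed from another in its group by counting error alone. A repeat run with further technical spread cannot be told from this value. Nor can it tell whether any came from the same liver.

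The counts were fitted with edgeR 4.0.16 (R 4.3.3). The filter was filterByExpr at a minimum count of 10, libraries were scaled by TMM, and all 9 entered a single model with a coefficient per diet. Each comparison was tested with the robust quasi-likelihood F test, two-sided, with Benjamini-Hochberg adjustment over all genes tested. CPM are given as mean ± SD and log2 fold changes with SE. For edgeR this SE was worked back from the test, as the absolute log2 fold change over the square root of F. The receptor genes, the lists and the naming rule were chosen with earlier results of these data known. All receptor genes are named; from each list up to 4 members past the threshold with the smallest p are named, and for each receptor gene the 3 genes closest to it. Some of the genes this rule takes are not reported here. Predicted genes (Gm, Rik and -ps symbols) were left out of the latter. Alternatives were DESeq2 1.42.0 (size factors and Wald test), no filter, a replicate block, only the 2 groups compared, each library left out, HFD 1 and HFD_HDCA 1 left out together, and FPKM on the log2(value + 0.1) or log2(value + 1) scale with limma 3.58.1, with and without a filter at 0.5 FPKM. The fit was first checked on simulated counts in which known genes were changed.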

Additional observations from a re-analysis of the deposited data

How the results depend on the processing

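Of 486 values, 27 receptor fold changes under 18 alternatives each, 443 kept their direction and their side of the threshold, 13 lost a call, 6 gained one and 24 changed sign. All sign changes were in differences that did not pass. With 1 library left out, Esrra in HFD against ND ran from -0.0487 to 0.245, Rxra from -0.104 to 0.0178, Thrb from -0.0923 to 0.0282 and Ppard from -0.0586 to 1.51. In the same fits Nr1i2 in HFD_HDCA against HFD ran from -0.0994 to 0.0859, and in HFD_HDCA against ND Nr3c1 ran from -0.109 to 0.0920 and Ppard from -1.45 to 0.13. Without HFD 1 and HFD_HDCA 1 together, Esrra in HFD against ND was -0.0697, Nr1i2 and Thrb in HFD_HDCA against HFD were 0.140 and 0.0318, and Nr3c1 in HFD_HDCA against ND was 0.0925. On the FPKM scale, with pseudocounts of 0.1 and 1 and without the filter Rxra in HFD against ND was 0.0540, 0.0533 and 0.0540, and Thrb was 0.0968, 0.0848 and 0.0968. That scale with a pseudocount of 0.1 put the median of all genes at 0.11 in HFD against ND and -0.11 in HFD_HDCA against HFD, and it called 98 genes higher and 57 lower in the first and 132 and 359 in the second, where the counts gave 60 and 60, and 210 and 218. For HFD against ND, HFD_HDCA against HFD and HFD_HDCA against ND in turn, the genes called were 120, 428 and 815. They were 380, 1085 and 1398 with DESeq2, and 32 to 226, 127 to 672 and 196 to 1213 with 1 library left out. They came to 576 and 977 in the first 2 without HFD 1 and HFD_HDCA 1, and to 134 in the second with only its own groups. The receptor genes called, 0, 0 and 2, were 0 to 0, 0 to 1 and 0 to 3 with 1 library left out. In HFD_HDCA against HFD 1 was called with DESeq2, and 1, Esrra, without HFD 1 and HFD_HDCA 1 (0.45, adjusted p = 0.0408). In HFD_HDCA against ND 1 was called without the filter, 1 with FPKM without the filter and 1 with the replicate block. Libraries with the same replicate number correlated between -0.146 and 0.154 in their deviations from the group means. Number 1 matched number 1 best in each of the 3 comparisons, at 0.0919, 0.0254 and 0.154 in the order given. With 3 libraries per group such values cannot decide whether a number marks anything shared. The replicate block called 82, 328 and 715 genes, moved Hnf4a in HFD_HDCA against ND to an adjusted p of 0.0677 and brought the log2 fold change of Thrb in HFD against ND to 0.00038. It left Nr1i3 called (adjusted p = 0.0286). The causes of these changes were not tested. With 3 livers per group, differences of the size of those in Nr1i2, Rxra or Nr3c1 are within what the spread between libraries leaves undecided.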
